A study of Mus musculus with 9 samples.

Results

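Perivascular macrophages are represented here by 8 genes that are commonly used to recognise them: the endocytic receptor genes Mrc1, Stab1, Cd163 and Lyve1, the secreted-protein genes Pf4 and F13a1, the enzyme gene Cbr2 and the membrane protein gene Ms4a7. The list was given by symbol, and each symbol was matched to its identifier in the GENCODE M21 annotation, so the members are 8 of the 55450 genes in the deposited tables. All 8 passed the filter on low counts and were tested, among 20892 genes in all.

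Perivascular macrophages lie in the space between brain vessels and the surrounding tissue and belong, with meningeal and choroid plexus macrophages, to the border macrophages of the brain. They sample fluid and take up proteins, hyaluronan fragments and haemoglobin complexes through scavenger receptors. They share general myeloid genes with microglia but differ from them in these receptors, which is why the receptor genes serve as markers in brain tissue.

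RNA was sequenced from hand-dissected substantia nigra of saline-perfused male mice, 5 weeks after the nigra was transduced with a Cre-inducible lentiviral vector, with 3 libraries (A, B and C) in each of 3 groups. The CTR group were CX3CR1-CreERT2 mice with a control vector for GFP (destabilized GFP in the study's text), the CX3 group were CX3CR1-CreERT2 mice with a Synuclein-expressing vector, and the DAT group were DAT-Cre mice with the Synuclein-expressing vector. Mice were transduced at 8 weeks of age per the study's results and were bought at 9 weeks per its methods. Tamoxifen, which starts recombination by CreERT2, is described for the CX3CR1-CreERT2 mice and was given on 4 consecutive days. CX3CR1-CreERT2 places the recombinase under the control of the fractalkine receptor gene, which microglia and border macrophages both use, and DAT-Cre places it under that of the dopamine transporter gene of dopamine neurons. DAT therefore differed from CTR in the Cre line, the vector and tamoxifen together, and their parts cannot be told apart. CX3 and DAT shared the vector and differed in the Cre line and tamoxifen. How many animals gave each library is not given in the sources used here, so the tests measure only the spread between libraries, which may be technical.

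Between 21592817 and 39475428 reads per library were counted on genes, and 3 counts, the smallest signal taken as countable, equalled 0.0779 to 0.151 CPM, which are counts relative to a library's TMM-adjusted total, a floor that covers counting error only. The squared difference between libraries of a group was 1.45 to 1.78 times that of random sampling in CTR, 2.51 to 6.48 times in CX3 and 2.20 to 15.4 times in DAT, where the pairs with library B had 11.2 and 15.4. Reads outside annotated genes made up 7.47% to 7.61% in CTR, 6.39% to 7.73% in CX3 and 4.15% to 4.31% in DAT, and their part in the differences between DAT and the other groups was not tested. Markers of dopamine neurons were present in every library, with a summed level of 863 to 872 CPM in CTR, 1050 to 1070 in CX3 and 679 to 690 in DAT. In bulk tissue, fewer cells of a type and less RNA per cell cannot be told apart.

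The members lie on 8 different chromosomes. To show the sequence before genes that were raised in DAT and before the one that was reduced there, the 250 bases upstream of the RefSeq start site on GRCm38.p6 are printed for Mrc1 (chr2:14229164-14229413, plus strand), Stab1 (chr14:31168642-31168891, minus strand) and Ms4a7 (chr19:11336147-11336396, minus strand). Capitals mark matches, on either strand, to the core GAGGAA of PU.1, the factor that myeloid cells require, and to the MAF recognition motif TGCTGA.
Mrc1: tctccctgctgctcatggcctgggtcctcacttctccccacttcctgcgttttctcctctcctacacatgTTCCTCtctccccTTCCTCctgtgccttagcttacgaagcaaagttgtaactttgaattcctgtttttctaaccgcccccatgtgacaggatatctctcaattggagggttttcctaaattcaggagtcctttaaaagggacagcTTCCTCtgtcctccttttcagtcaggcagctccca
Stab1: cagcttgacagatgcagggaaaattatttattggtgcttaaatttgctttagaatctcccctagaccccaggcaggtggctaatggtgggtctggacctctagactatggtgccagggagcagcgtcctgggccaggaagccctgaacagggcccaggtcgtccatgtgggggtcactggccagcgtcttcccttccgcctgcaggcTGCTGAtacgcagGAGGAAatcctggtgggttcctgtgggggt
Ms4a7: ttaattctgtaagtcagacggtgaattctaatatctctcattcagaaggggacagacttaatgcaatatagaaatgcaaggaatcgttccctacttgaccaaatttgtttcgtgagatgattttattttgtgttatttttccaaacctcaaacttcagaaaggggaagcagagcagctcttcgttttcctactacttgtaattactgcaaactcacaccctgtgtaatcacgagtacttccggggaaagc
Mrc1 had 3 matches to the PU.1 core, which began 180, 167 and 35 bases before the start site, Stab1 had 1 at 30 bases and a MAF motif at 43 bases, and Ms4a7 had neither. Of the 7 members in the promoter table, 5 held the PU.1 core and 1 the MAF motif, beside 23.3% and 16.1% of the 32851 promoters in the table, and none held the core of the interferon-stimulated response element, which 3.0% of all promoters held. Of the other members raised in DAT, F13a1 held the PU.1 core, Cd163 held neither motif and Lyve1 had no promoter to read. Pf4 and Cbr2, which were not called in DAT against CTR, each held the PU.1 core. The printed promoters thus do not stand for all members. These matches are a description of the letters in the window and show no binding.

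Levels of the members in control nigra were low and of similar size once set per length. As CPM per kilobase of exon in CTR (mean ± SD, n = 3 libraries), the order was Pf4 at 2.44 ± 0.156, Stab1 at 2.28 ± 0.113, Mrc1 at 2.01 ± 0.102, Cbr2 at 1.64 ± 0.0513, Ms4a7 at 1.43 ± 0.0782, Cd163 at 1.20 ± 0.00578, F13a1 at 0.918 ± 0.0478 and Lyve1 at 0.621 ± 0.0566. Pf4 and Stab1, at the top of this order, differed by less than the sum of their SDs, and all other neighbours differed by more. With the length of the longest transcript in place of all exons, F13a1 (1.57) came before Cd163 (1.48). In DAT the order was led by Stab1 at 3.36 ± 0.340 and ended with Ms4a7 at 0.342 ± 0.0325 CPM per kilobase.

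In CX3 against CTR, 2 of the 8 members rose (Mrc1 and F13a1) and 3 fell (Stab1, Lyve1 and Ms4a7), where 14.0% of all genes tested rose and 16.5% fell (edgeR quasi-likelihood test, adjusted p under 0.05 over all genes). In DAT against CTR, 5 members rose (Mrc1, Stab1, Cd163, Lyve1 and F13a1) and Ms4a7 fell, beside 32.0% of all genes that rose and 27.9% that fell. In CX3 against DAT, 5 members were lower in CX3 (Mrc1, Stab1, Cd163, Lyve1 and Cbr2) and Ms4a7 was higher, beside 31.3% of all genes lower and 27.6% higher. The median log2 fold change of the 8 members was -0.21, 0.32 and -0.32 in these comparisons, while the medians over all genes were within 0.0103 of zero. The comparisons share libraries, so their values are set side by side and are not independent. The summed level of the 8 genes was 59.8 to 63.1 CPM in CTR, 55.8 to 60.7 in CX3 and 73.6 to 79.5 in DAT.

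**Figure D1:**
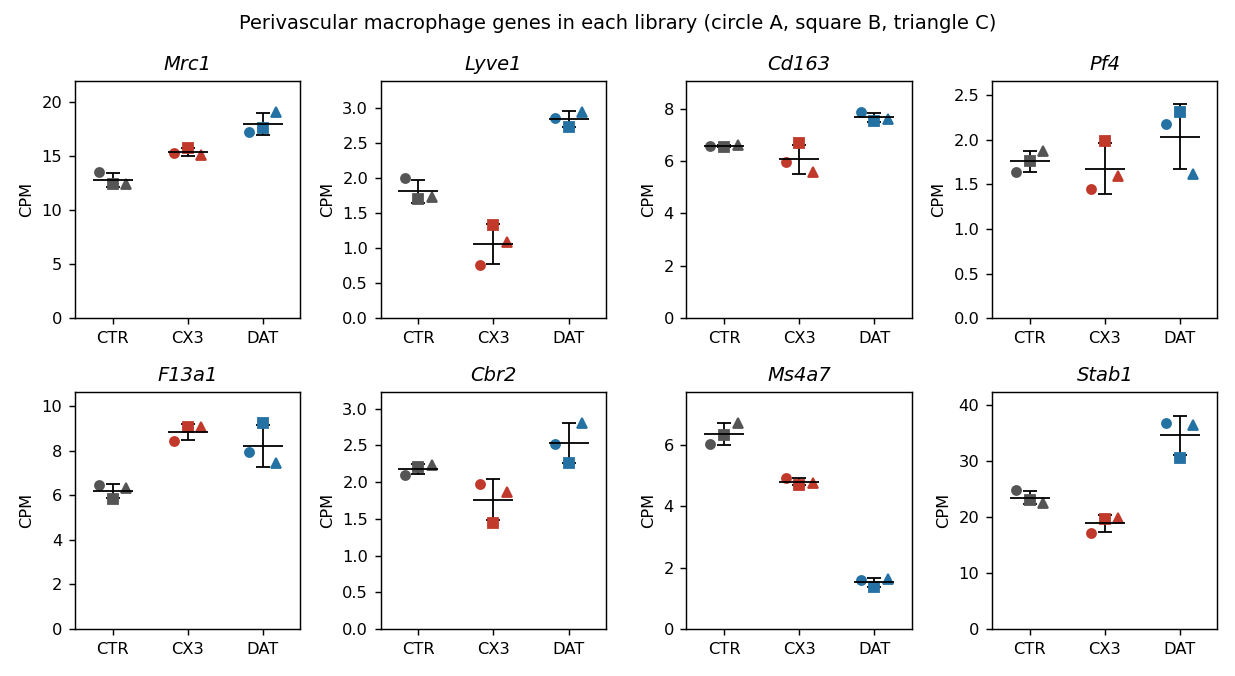
CPM of each of the 8 perivascular macrophage genes (vertical axes, starting at zero) in the 3 libraries of CTR, CX3 and DAT. Points are libraries A (circle), B (square) and C (triangle), and black bars give the mean with the SD. Ms4a7 lies at 1.36 to 1.62 CPM in DAT, below every other library, while Stab1 and Lyve1 are highest in DAT and lowest in CX3.

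Among the endocytic receptors, Mrc1 encodes the mannose receptor CD206, the most widely used marker of these cells (ENSMUSG00000026712.3, GRCm38 chromosome 2 from 14229392 to 14332057). Mrc1 had 13.5, 12.4 and 12.4 CPM in CTR libraries A, B and C, 15.3, 15.8 and 15.1 in CX3, and 17.2, 17.6 and 19.1 in DAT, from 350 to 627 counts. The 3 groups did not overlap, with CTR lowest and DAT highest. The log2 fold change of Mrc1 was 0.27 ± 0.07 (SE) in CX3 against CTR (adjusted p = 0.0071), 0.49 ± 0.07 in DAT against CTR (adjusted p = 2.2e-05) and -0.22 ± 0.06 in CX3 against DAT (adjusted p = 0.0094). In forward-strand counts, which rest on fewer reads than both strands together, Mrc1 was not called in CX3 against CTR (0.23, adjusted p = 0.075). The difference between CX3 and DAT shrank to -0.03 in reverse-strand counts (adjusted p = 0.81) and likewise to -0.03 with library size as the only scaling (adjusted p = 0.73). It was also not called without CX3 library C (-0.18, adjusted p = 0.057) or without DAT library C (-0.16, adjusted p = 0.08), and was lost under 7 of 20 alternatives in all.

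Stab1 encodes stabilin-1, a scavenger receptor of macrophages and of some endothelia (ENSMUSG00000042286.13, chromosome 14 from 31139013 to 31168641). Its level was 24.8, 23.1 and 22.6 CPM in CTR, 17.1, 19.7 and 19.9 in CX3, and 36.9, 30.6 and 36.4 in DAT, from 608 to 1345 counts, and the groups did not overlap. Stab1 fell by 0.31 ± 0.08 on the log2 scale in CX3 against CTR (adjusted p = 0.0095), rose by 0.57 ± 0.08 in DAT against CTR (adjusted p = 2.7e-05), and was lower in CX3 than in DAT with a log2 fold change of -0.88 ± 0.08 (adjusted p = 3.6e-07). Stab1 shares 1.09% of its exon bases with Nt5dc2 on the opposite strand, and its CX3 against DAT difference held under all 20 alternatives tried, from -0.95 to -0.68.

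Lyve1 encodes a hyaluronan receptor shared by border macrophages and lymphatic endothelium (ENSMUSG00000030787.4, chromosome 7 from 110850607 to 110863239). Lyve1 was measured at 2.0, 1.70 and 1.73 CPM in CTR, 0.753, 1.33 and 1.09 in CX3, and 2.85, 2.72 and 2.94 in DAT, from 29 to 104 counts. Every CX3 library lay below every CTR library and every DAT library above. Its log2 fold change was -0.78 ± 0.20 in CX3 against CTR (adjusted p = 0.0081), 0.65 ± 0.18 in DAT against CTR (adjusted p = 0.0062) and -1.43 ± 0.19 in CX3 against DAT (adjusted p = 1.6e-05), the last being the largest difference of any receptor among the members. Lyve1 was not called against CTR in 1 strand's counts at a time, with an adjusted p of 0.075 for CX3 in the reverse strand and 0.06 for DAT in the forward strand.

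Cd163 encodes the receptor that takes up haemoglobin bound to haptoglobin (ENSMUSG00000008845.9, chromosome 6 from 124304656 to 124330527). Cd163 had 6.57, 6.54 and 6.60 CPM in CTR, 5.95, 6.67 and 5.57 in CX3, and 7.87, 7.54 and 7.59 in DAT, from 150 to 287 counts. The DAT libraries lay above all others, and the CTR and CX3 libraries overlapped. In CX3 against DAT its log2 fold change was -0.34 ± 0.09 (adjusted p = 0.0051), and in CX3 against CTR it was -0.12 ± 0.09 (adjusted p = 0.36, 95% interval -0.31 to 0.08). The difference from DAT was -0.12 in forward-strand counts (adjusted p = 0.44), -0.15 with library size as the only scaling (adjusted p = 0.16) and -0.21 with an offset for gene length (adjusted p = 0.063), and was not called in any of these or against a 1.5-fold change. The rise in DAT against CTR was 0.23 ± 0.09 (adjusted p = 0.047), a call that was lost under 19 of 20 alternatives, with adjusted p-values from 0.036 to 1, so that the count of 5 members became 4 under most of them.

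Genes of haem handling, which act on what Cd163 takes up, gave a different picture. Of 10 such genes, all tested, 1 rose and 1 fell in CX3 against CTR, and 1 rose and 5 fell in DAT against CTR, with median log2 fold changes of 0.03 and -0.41 (the first was -0.01 in forward-strand counts). The ferritin heavy chain gene Fth1 had a log2 fold change of 0.03 in CX3 (adjusted p = 0.74) and fell by 0.53 in DAT (adjusted p = 8.6e-06). The ferritin light chain gene Ftl1 fell by 0.83 in DAT (adjusted p = 4.1e-07) and had -0.15 in CX3 (adjusted p = 0.13), while the haem transporter gene Slc48a1 rose by 0.15 in DAT (adjusted p = 0.011) and had 0.08 in CX3 (adjusted p = 0.19). Erythroid genes, of which 5 of 6 were tested, fell in 5 cases in CX3 and in 3 in DAT against CTR, led by the globin genes Hbb-bs, Hba-a1 and Hbb-bt with -1.17, -1.53 and -1.30 in CX3 and -0.16, -0.35 and -0.31 in DAT, the first of which did not pass (adjusted p = 0.22). The summed erythroid level was 242 to 267 CPM in CTR, 94.5 to 108 in CX3 and 187 to 266 in DAT.

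Of the secreted proteins, F13a1 encodes the A subunit of coagulation factor XIII, a transglutaminase that crosslinks fibrin (ENSMUSG00000039109.16, chromosome 13 from 36867178 to 37050244). F13a1 had 6.44, 5.82 and 6.30 CPM in CTR, 8.41, 9.07 and 9.04 in CX3, and 7.92, 9.25 and 7.42 in DAT, from 169 to 347 counts. All CX3 and DAT libraries were above all CTR libraries, and CX3 and DAT overlapped. The rise was 0.52 ± 0.09 on the log2 scale in CX3 (adjusted p = 0.00087) and 0.40 ± 0.10 in DAT (adjusted p = 0.0029), and the difference between CX3 and DAT was 0.12 ± 0.09 (adjusted p = 0.30, 95% interval -0.08 to 0.32). The rise in DAT was not called in forward-strand counts (0.17, adjusted p = 0.27), and F13a1 shares 1.10% of its exon bases with Gm30489 on the opposite strand.

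Pf4, the gene of a chemokine also stored in platelets (ENSMUSG00000029373.7, chromosome 5 from 90772435 to 90773383), had 1.64, 1.76 and 1.87 CPM in CTR, 1.45, 1.99 and 1.59 in CX3, and 2.17, 2.31 and 1.62 in DAT, from 37 to 79 counts. The libraries of all 3 groups overlapped. Its log2 fold change was -0.07 ± 0.18 in CX3 against CTR (adjusted p = 0.80, 95% interval -0.45 to 0.31), 0.22 ± 0.18 in DAT against CTR (adjusted p = 0.32, -0.18 to 0.61) and -0.29 ± 0.18 in CX3 against DAT (adjusted p = 0.19, -0.67 to 0.10). The counts of Pf4 were thus compatible with any difference within these intervals, in either direction. Pf4 is the shortest member, and with an offset for gene length the DAT value was 0.50 (adjusted p = 0.041). Platelet genes, of which 6 of 10 were tested, summed to 8.28 to 8.71 CPM in CTR, 7.65 to 9.17 in CX3 and 7.28 to 7.95 in DAT. Of the 6, none rose and 2 fell in CX3 against CTR, and 1 rose and 2 fell in DAT. Itga2b, Gp5 and Gp1ba, the highest by the mean of all 9 libraries, had 4.35, 0.925 and 0.977 CPM in CTR.

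Cbr2 encodes a carbonyl reductase (ENSMUSG00000025150.10, chromosome 11 from 120729489 to 120732114). Cbr2 had 2.10, 2.20 and 2.23 CPM in CTR, 1.97, 1.44 and 1.87 in CX3, and 2.52, 2.26 and 2.81 in DAT, from 45 to 92 counts. The libraries were ordered CX3, CTR, DAT without overlap, and only the outer groups differed by the test, with a log2 fold change of -0.52 ± 0.16 in CX3 against DAT (adjusted p = 0.012). It was -0.30 ± 0.16 in CX3 against CTR (adjusted p = 0.17) and 0.22 ± 0.16 in DAT against CTR (adjusted p = 0.24). The call in CX3 against DAT was lost under 5 of 20 alternatives: in reverse-strand counts (-0.51, adjusted p = 0.054), in forward-strand counts (-0.36, adjusted p = 0.15), with library size as the only scaling (-0.32, adjusted p = 0.089), without DAT library C (-0.43, adjusted p = 0.062) and against a 1.5-fold change.

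Ms4a7 moved apart from the other members. It encodes a membrane-spanning protein of the MS4A family that border macrophages carry and resting microglia mostly lack (ENSMUSG00000024672.11, chromosome 19 from 11321039 to 11336146). Ms4a7 had 6.04, 6.32 and 6.73 CPM in CTR, 4.93, 4.71 and 4.77 in CX3, and 1.59, 1.36 and 1.62 in DAT, from 27 to 230 counts. The 3 groups were far apart and did not overlap. Its log2 fold change was -0.41 ± 0.10 in CX3 against CTR (adjusted p = 0.0057), -2.05 ± 0.12 in DAT against CTR (adjusted p = 4.4e-09), a level 0.242 times that of CTR, and 1.64 ± 0.12 in CX3 against DAT (adjusted p = 5.3e-08). Against DAT, both differences held under all 20 alternatives, while the fall in CX3 was not called in reverse-strand counts (-0.32, adjusted p = 0.10).

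**Figure D2:**
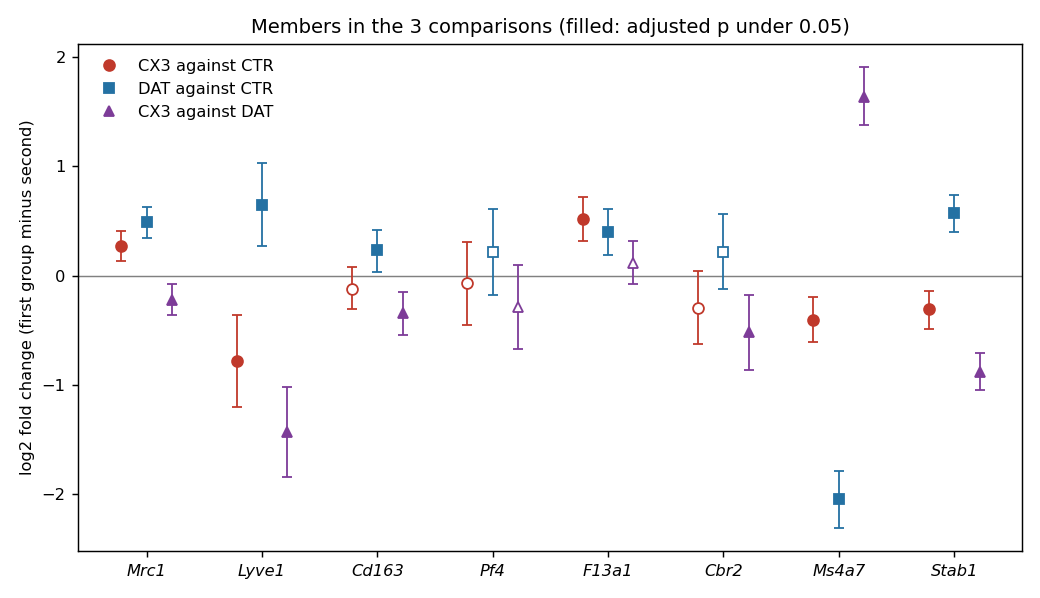
Log2 fold change (vertical axis, first group minus second) of each member in CX3 against CTR (circles), DAT against CTR (squares) and CX3 against DAT (triangles). Bars are 95% intervals of the edgeR fit, and filled symbols passed an adjusted p of 0.05. Ms4a7 lies at -2.05 in DAT against CTR, where 5 other members are filled and above zero.

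Ms4a7 lies in a cluster of related genes on chromosome 19, which were examined after the values of Ms4a7 were seen. Of 19 Ms4a genes in the tables there, 10 were tested, and in DAT against CTR 9 fell and Ms4a4a did not pass the test (log2 fold change 0.05, adjusted p = 0.91). The neighbours Ms4a6b, Ms4a6c and Ms4a6d, which macrophages and microglia share, had log2 fold changes of -1.95 (adjusted p = 2.9e-10), -2.18 (adjusted p = 3.7e-08) and -2.13 (adjusted p = 2.6e-09). The B cell gene Ms4a1, which encodes CD20, fell by 2.36 (adjusted p = 2.2e-06). In CX3 against CTR 7 of the 10 fell and Ms4a4a rose by 0.72 (adjusted p = 0.046), and the median of the 10 was -0.54 in CX3 and -2.0 in DAT. Of all genes tested, 27.9% fell in DAT against CTR and 16.5% in CX3 against CTR.

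**Figure D3:**
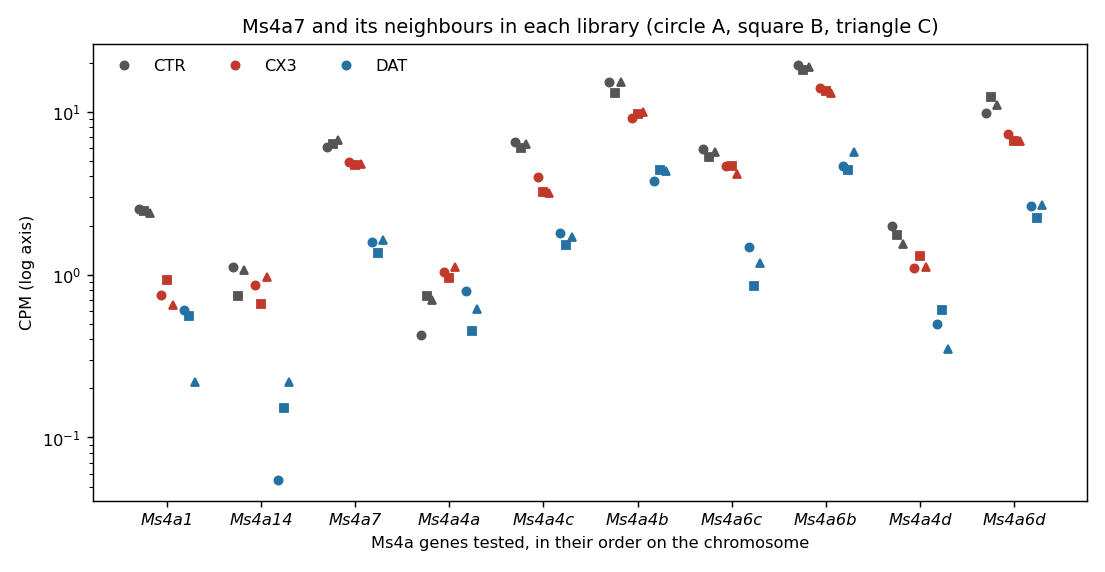
CPM on a log axis of the 10 tested Ms4a genes in each library, in their order along the chromosome. Colours mark CTR, CX3 and DAT, and symbols the libraries A (circle), B (square) and C (triangle). DAT libraries lie below all CTR libraries for every gene shown except Ms4a4a.

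General myeloid genes, which border macrophages share with microglia and monocytes, mostly fell against CTR, though not all in the order of Ms4a7. All 8 such genes fell in DAT against CTR and 6 fell in CX3, with median log2 fold changes of -1.16 and -0.46, and their summed level was 427 to 428 CPM in CTR, 318 to 324 in CX3 and 241 to 245 in DAT. The growth factor receptor gene Csf1r fell by 0.34 in DAT (adjusted p = 7.8e-06) and by 0.58 in CX3 (adjusted p = 2.3e-07). Unlike Ms4a7, Csf1r was lower in CX3 than in DAT (-0.23, adjusted p = 0.00032). Ptprc, the gene of CD45, fell by 1.84 in DAT (adjusted p = 6.1e-11) and by 0.20 in CX3 (adjusted p = 0.024). Adgre1, the gene of F4/80, fell by 1.44 in DAT (adjusted p = 2.5e-11) and by 0.37 in CX3 (adjusted p = 3.8e-05). In DAT the summed level of the 8 general myeloid genes was thus below that of every CTR library. The sum of the 8 perivascular macrophage genes was above it, but that sum is mostly Stab1 and Mrc1, which were both highest in DAT, and does not speak for all 8.

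Microglia genes fell in 8 of 10 cases in each comparison with CTR, and 1 rose in DAT, where the median was -0.51 beside -0.43 in CX3. Sparc, whose product is also made by astrocytes and vessels, rose by 0.30 in DAT (adjusted p = 3.4e-06) and fell by 0.28 in CX3 (adjusted p = 3.7e-05). Cx3cr1, whose promoter drives CreERT2 in the CTR and CX3 mice, had 102 ± 0.900 CPM in CTR, 44.6 ± 0.894 in CX3 and 83.4 ± 4.31 in DAT (SD, n = 3 libraries), and fell by 1.20 in CX3 (adjusted p = 2.8e-10) and by 0.29 in DAT (adjusted p = 9.6e-05). The strain name in the study's methods marks a targeted allele of Cx3cr1 itself, and the DAT mice were of another line. The part of that allele in the difference between DAT and CTR was not tested.

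Other genes of border macrophages did not share a direction. Of 24 genes, 23 were tested, and 7 rose and 4 fell in CX3 against CTR, while 5 rose and 8 fell in DAT. Their medians, -0.09 and -0.11, changed sign to 0.02 in each comparison in reverse-strand counts. The transcription factor gene Maf fell by 0.41 in CX3 (adjusted p = 0.00020) and rose by 0.20 in DAT (adjusted p = 0.011), and it was lower in CX3 than in DAT with -0.61 (adjusted p = 1.1e-06). The endocytic adaptor gene Dab2 rose by 0.19 in DAT (adjusted p = 0.038) and had -0.13 in CX3 (adjusted p = 0.19). Igfbp4, which encodes a binding protein of insulin-like growth factors, rose by 0.84 in DAT (adjusted p = 9.1e-08) and had 0.04 in CX3 (adjusted p = 0.68). In CX3 against DAT 11 of the 23 were higher and 5 lower, the reverse of the split among the members.

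Other scavenger and endocytic receptors were likewise divided. Of 17 tested among 18, 6 rose and 7 fell in each comparison with CTR, with medians of -0.03 in CX3 (0.02 with library size as the only scaling) and -0.36 in DAT. Lrp1, a large receptor of neurons, glia and macrophages, rose by 1.20 in DAT (adjusted p = 3.2e-08) and had -0.10 in CX3 (adjusted p = 0.43). The lysosomal receptor gene Scarb2 fell by 0.30 in CX3 (adjusted p = 0.00024) and had -0.04 in DAT (adjusted p = 0.44), and the phagocytic receptor gene Axl fell by 0.26 in CX3 (adjusted p = 0.0013) and by 0.34 in DAT (adjusted p = 3.7e-05).

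Genes of alternative macrophage activation rose in most cases in CX3. Mrc1 is known to be induced in this state, but its mean was highest in DAT, with 12.8 CPM in CTR, 15.4 in CX3 and 18 in DAT. The part of this state in the level of Mrc1 was not tested. Of 14 genes, all tested, 10 rose and 1 fell in CX3 against CTR (median 0.38), none rose and 6 fell in DAT (median -0.53), and 12 were higher and none lower in CX3 against DAT (median 1.35). Clec7a, the gene of the fungal sugar receptor dectin-1, had 36.3 ± 1.52 CPM in CTR, 43.9 ± 1.80 in CX3 and 6.27 ± 0.713 in DAT (SD, n = 3 libraries). The interleukin-10 receptor gene Il10ra rose by 0.20 in CX3 (adjusted p = 0.016) and fell by 1.06 in DAT (adjusted p = 6e-09), and the interleukin-4 receptor gene Il4ra had -0.08 and -0.11 (adjusted p = 0.42 and 0.19).

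**Figure D4:**
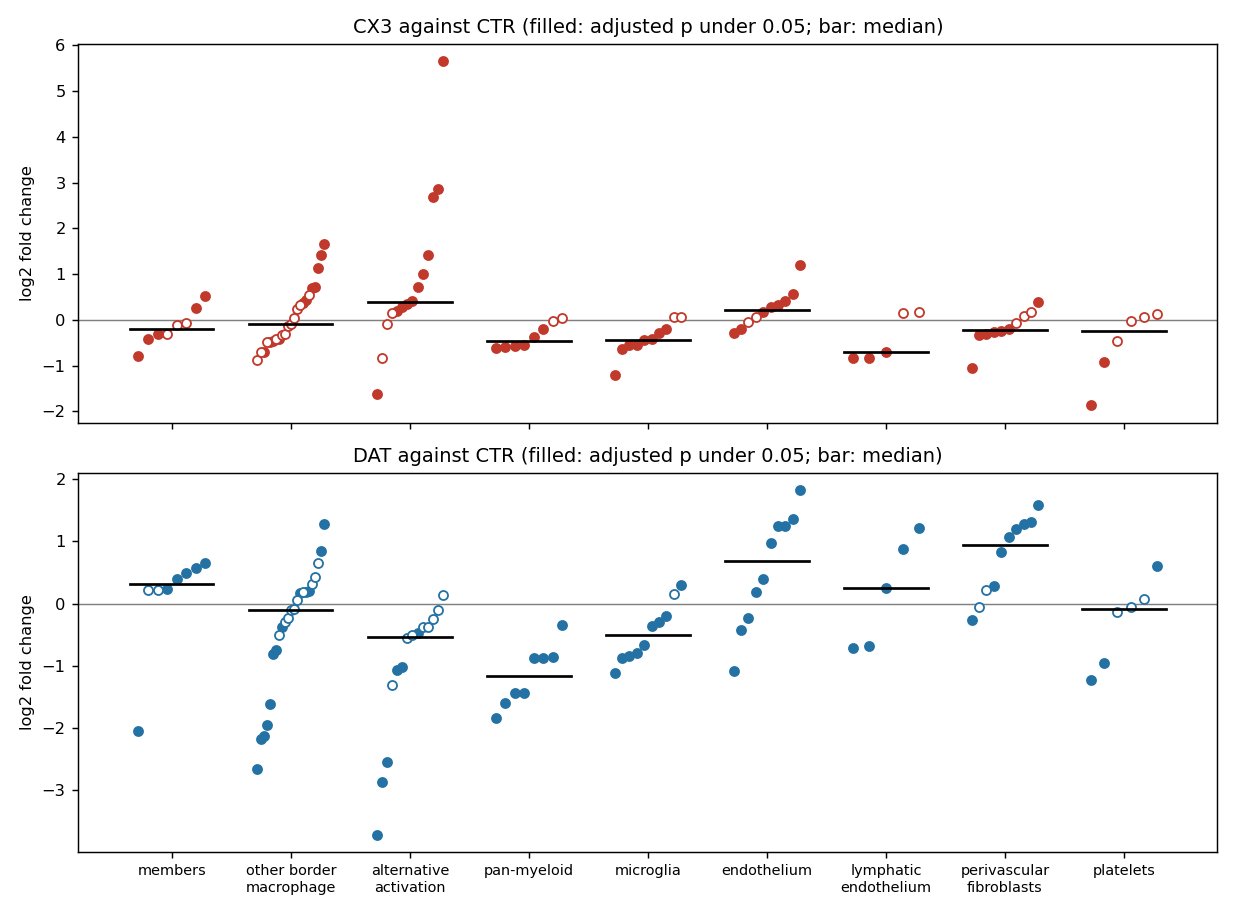
Log2 fold change (vertical axes) of every tested gene of the members and of 8 other lists, in CX3 against CTR (upper panel) and DAT against CTR (lower panel). Each point is a gene, filled where its adjusted p was under 0.05, and the black bar is the list's median. In DAT against CTR 1 member, Ms4a7, lies below zero, as all the general myeloid genes do, and the other 7 members lie above zero.

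Several members are also expressed by vessel and other cells, and the markers of those cells moved between the groups too. Endothelial genes rose in 6 of 10 cases and fell in 2 in CX3, and rose in 7 and fell in 3 in DAT, with a summed level of 336 to 339 CPM in CTR, 417 to 421 in CX3 and 477 to 508 in DAT. Among them Slco1a4 rose by 0.57 in CX3 and fell by 0.23 in DAT, Flt1 rose by 0.28 and 0.97, and Cldn5 rose by 1.20 and 1.36. Of the lymphatic endothelial genes, 5 of 7 were tested, none rose and 3 fell in CX3, and 3 rose and 2 fell in DAT. Their summed level, mostly of Prox1, Reln and Pdpn, which brain cells also express, was 113 to 116 CPM in CTR, 86.3 to 98.2 in CX3 and 130 to 152 in DAT. Fibroblast genes of vessels and meninges rose in 1 and fell in 6 of 10 cases in CX3, and rose in 7 and fell in 1 in DAT, with sums of 312 to 320, 263 to 271 and 473 to 478 CPM in CTR, CX3 and DAT. Of these Pdgfra had -0.33 in CX3 and 0.28 in DAT, Dcn 0.08 and -0.06, and Col1a2 -1.05 and 1.19. Mural genes, of which 9 of 10 were tested, summed to 414 to 423, 382 to 394 and 447 to 454 CPM, with 4 higher and 2 lower in CX3 and 7 higher and 1 lower in DAT, and the largest of them, Vtn, Rgs5 and Acta2, had -1.04, 0.43 and -0.04 in CX3 and 0.20, -0.79 and 0.41 in DAT. The summed levels of the lymphatic, fibroblast, mural, microglia (1980 to 2010 CPM in CTR, 1570 to 1580 in CX3, 2060 to 2160 in DAT, mostly Sparc) and other scavenger receptor lists (885 to 921, 740 to 808 and 1060 to 1280 CPM) were all ordered as Stab1 and Lyve1 were, with CX3 lowest, DAT highest and no overlap. Such sums lean on abundant genes. Vtn had 179, 86.7 and 206 CPM in CTR, CX3 and DAT, Lrp1 had 273, 256 and 628, and the mural gene Rgs5 had 146, 196 and 84.3. The median log2 fold changes in CX3 and DAT were 0.28 and 0.41 for mural, -0.03 and -0.36 for scavenger receptor and -0.43 and -0.51 for microglia genes. These 3 lists as a whole thus did not follow the order of their sums. The part of these cells in the members' differences was not tested.

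Markers of blood-derived cells and of neighbouring tissue moved as well. Of the monocyte and neutrophil genes, 9 of 10 were tested, 2 rose and 5 fell in CX3, and 1 rose and 8 fell in DAT. Fn1, Vcan and Ly6c2 had log2 fold changes of -0.67, -0.58 and -2.17 in CX3 and 1.49, -0.68 and -4.03 in DAT. The list summed to 141 to 149 CPM in CTR, 86.4 to 97.1 in CX3 and 141 to 183 in DAT. In DAT this sum was mostly Fn1, with a mean of 133 CPM, and does not speak for the genes that fell. T cell genes fell in 4 of 8 cases in CX3 and in 8 in DAT, where Cd8a, Trac and Lck fell by 2.16, 1.62 and 1.46, and summed to 67.7 to 70.1, 55.5 to 58.9 and 17.9 to 20.6 CPM. Dendritic cell genes rose in 4 and fell in 2 of 10 cases in CX3 and fell in 6 in DAT. The highest were Siglech, which is also in the microglia list, Flt3 and Zbtb46, at 26.2, 19.3 and 7.47 CPM in CTR. The dendritic cell list summed to 67.9 to 70.9, 73.5 to 74.7 and 50.6 to 58.0 CPM in CTR, CX3 and DAT. Of 5 mast cell genes tested among 8, 4 rose in each comparison with CTR and 1, Kit, fell in CX3, with Mcpt4 at 0.481, 1.67 and 1.15 CPM and Tpsb2 at 0.482, 1.53 and 1.19 CPM in CTR, CX3 and DAT, and the list, mostly of Kit, summed to 19.6 to 22.6, 18.3 to 21.6 and 38.1 to 40.4 CPM. Choroid plexus genes rose in 9 of 10 cases in CX3 and in 9 in DAT, with Ttr at 20.0 ± 0.720, 1460 ± 56.2 and 853 ± 97.7 CPM, Enpp2 at 709, 1090 and 919, and Kl at 7.41, 24.2 and 38.0 CPM, and border macrophages also live in this tissue. Dopamine neuron genes rose in 6 of 10 cases in CX3, and rose in 2 and fell in 4 in DAT, where Aldh1a1, Slc6a3 and Ddc fell by 0.48, 0.51 and 0.25. The part of these cells in the members' differences was not tested.

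The 8 members did not follow a single pattern over the 9 libraries. Pearson's correlation of a member's log2 CPM with the mean of all 8, which contains it, was 0.986 for Lyve1, 0.918 for Stab1, 0.884 for Cd163, 0.658 for Cbr2, 0.617 for Pf4 and 0.295 for Mrc1, and it was -0.286 for F13a1 and -0.589 for Ms4a7. Lyve1 and Stab1 correlated at 0.951 and Mrc1 and Ms4a7 at -0.893. These are descriptions over 9 libraries that fall into 3 groups, so they largely restate the group means, and the libraries share their depth across genes. Among 16263 other genes, 67 correlated above 0.95 with the members' mean, and the closest were Bod1l (0.987), Nol4 (0.981), Boc (0.980), Slc17a6 (0.977) and Ctnna2 (0.975), none of which is in a macrophage or marker list used here.

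The counts of members called depended on single libraries and scalings as follows. Without DAT library C, 3 in place of 5 members were lower in CX3 than in DAT, since Mrc1 (adjusted p = 0.08) and Cbr2 (adjusted p = 0.062) were no longer called. With library size as the only scaling, which moved the median of all genes by -0.151 in DAT against CTR and 0.204 in CX3 against DAT, 2 members were lower and F13a1 also passed as higher in CX3 than in DAT. With that scaling, 58.9% of calls in CX3 against CTR, 37.8% in DAT against CTR and 66.7% in CX3 against DAT were in the higher direction, in place of 45.9%, 53.4% and 46.8%.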

How the data were processed

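RNA of nigral tissue was measured in 9 libraries. The deposited files hold counts per gene, without normalization, that the authors made with Trimmomatic and STAR per the labels, which also name featureCounts, DESeq2 and the mm10 build; the files have the layout of STAR's gene counts. The kit is described as stranded, but the reverse strand held 49.8% to 49.9% of strand-specific counts, so both strands together were used. Counts of 1 strand thus rest on fewer reads. The part of this lower depth in calls that were lost in 1 strand was not tested. Rows for unmapped (13.8% to 22.0% of reads), multimapping (3.36% to 4.54%), unassigned (4.15% to 7.73%) and ambiguous reads (4.34% to 5.67%) were left out. All identifiers belong to GENCODE M21. Libraries were grouped by their names, since the labels give genotype and vector per name. Counts were scaled by TMM, filtered by filterByExpr and tested with edgeR 4.0.16 in R 4.3.3 (quasi-likelihood, all 9 libraries in 1 fit, Benjamini-Hochberg over all genes, called at an adjusted p under 0.05), and CPM use the TMM-scaled size of libraries with 21592817 to 39475428 counts on genes. Tested on simulated data for CX3 against CTR (20512 genes), 197 of 198 genes changed 2-fold were recovered. The simulation gave all genes and groups the same dispersion, so it does not measure the recovery of smaller changes such as those of most members. All members are named. The other lists are not fully separate, since Siglech, Ccl22, Ccl24, Chil3 and Stab2 each appear in more than 1 of them. Of each other list the 3 genes with the highest mean CPM are named, and the others are counted; 1 gene that this rule names is not reported here. Likeness used log2 CPM with a prior count of 2 among genes of at least 1 CPM. The members and lists were chosen with earlier results of these data known. Alternatives were each strand, DESeq2 size factors and DESeq2 1.42.0, library size only, 2 filters, fits of 2 groups, a replicate block, a test against a 1.5-fold change, each library left out and, added after seeing the data, an offset for gene length. Promoters were read with Python 3.11.15 and pandas 2.3.3, and figures drawn with matplotlib.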

Additional observations from a re-analysis of the deposited data

How the results depend on the processing

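Of 480 values of the 8 members under the alternatives, 424 kept their direction and their side of the threshold, 49 were no longer called, 3 became called and 4 changed sign. None of the sign changes concerned a call: Cd163 in CX3 against CTR was 0.02 in forward-strand counts, and Pf4 in the same comparison was 0.00 there, 0.08 with the length offset and between -0.20 and 0.02 with each library left out (0.02 without CX3 library A). A test against a 1.5-fold change left 529, 3773 and 3780 genes in CX3 against CTR, DAT against CTR and CX3 against DAT, and kept Ms4a7 lower in DAT than in both other groups, while the members called higher and lower in CX3 against CTR and higher in DAT against CTR were 0, and 2 (Lyve1 and Stab1) were lower in CX3 than in DAT. Forward-strand counts called 1 member higher in CX3 and 2 in DAT against CTR, and 3 lower in CX3 than in DAT. Of all genes, these counts called 2433, 5837 and 5751 in the same comparisons and directions. Reverse-strand counts called 1 member lower in CX3 against CTR and 3 lower in CX3 than in DAT, beside 2844 and 5721 of all genes. Library size alone called 2 members higher and 2 lower in CX3 than in DAT, and the length offset 2 higher and 3 lower. Of all genes, library size alone called 8916 higher and 4444 lower there, and the length offset 7247 higher and 5734 lower. The length offset was tried because the median log2 fold change in DAT against CTR was -0.05 among the 1430 shortest genes and 0.17 among the 1429 longest. The causes were not tested. With each library left out in turn, genes called numbered 4638 to 8588 in CX3 against CTR, 11259 to 13389 in DAT against CTR and 11265 to 13254 in CX3 against DAT. The members called numbered 2 higher and 3 lower in CX3 against CTR, 4 to 5 higher and 1 lower in DAT against CTR, and 1 higher and 3 to 5 lower in CX3 against DAT.

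The library letters do not pair the samples: deviations of same-letter libraries correlated between -0.42 and 0.213, and 2 of 9 libraries correlated best with their own letter. With the letter as a replicate block, 5805, 12144 and 11955 genes were called, in place of 6367, 12520 and 12311, and among the members Cd163 alone lost a call, in DAT against CTR (adjusted p = 0.064). Members with few counts, such as Pf4 (37 to 79), Lyve1 (29 to 104) and Cbr2 (45 to 92), have wide intervals. Small changes in them may be missed.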

Other observations

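Genes named here were chosen after their values were seen. Ccl8, a chemokine gene used by border macrophages, had a mean of 3.84 ± 0.307 CPM in CTR, 12.1 ± 1.12 in CX3 and 0.632 ± 0.152 in DAT (SD, n = 3 libraries). Its log2 fold change was 1.66 in CX3 against CTR (adjusted p = 6.5e-08, edgeR) and -2.65 in DAT against CTR (adjusted p = 2.1e-08), opposite in sign to that of Lyve1 in both comparisons. Cd209f, a lectin gene of perivascular macrophages, had 0.764 ± 0.138, 0.958 ± 0.0700 and 1.86 ± 0.0743 CPM in CTR, CX3 and DAT. It rose by 1.27 on the log2 scale in DAT against CTR (adjusted p = 6.2e-05, edgeR), from 19 to 28 counts per CTR library. It comes from a divided list: of the 23 border macrophage genes tested, 5 rose and 8 fell in DAT. Between CTR and DAT, the means of the lectin genes Clec10a and Clec4n went from 2.86 and 0.66 to 2.34 and 0.389 CPM, and that of Cd209g from 0.485 to 0.798. The alternative activation genes Chil3 and Arg1 rose by 2.69 (adjusted p = 5.8e-08) and 2.85 (adjusted p = 4.7e-07) on the log2 scale in CX3 against CTR, from 0.713 and 0.344 to 4.61 and 2.49 CPM.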
